A study of Saccharomyces cerevisiae with 11 samples.

Results

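The genes described here encode the proteins of the yeast cytosolic ribosome. They were taken as every S. cerevisiae gene whose symbol is RPL (large subunit) or RPS (small subunit) followed by a number and, where a paralogue exists, the letter A or B. A probe set was named for 122 of the 132 such symbols in the gene table, out of 5449 genes measured, and the other 10 are not analysed here. The 122 comprised 70 large subunit and 52 small subunit genes. Of these, 96 formed 48 complete A and B pairs, 17 were single-copy genes and 9 were paralogues whose partner had no probe set named here. Where a gene had several probe sets, as 20 members did, the brightest stood for it.

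Gene expression was measured on 11 Affymetrix arrays of budding yeast grown at 26 degrees in selective medium to the middle of log phase. On 4 arrays the RNA came from yeast expressing CFTR, the epithelial chloride channel that is mutated in cystic fibrosis, from the plasmid pRS426PPGK-CFTR-3HA. On the other 7 it came from yeast with the control vector pRSGPD426, and the labels mark these arrays as re-analysed. The plasmid names give a PGK promoter for CFTR and a GPD promoter for the control, so more than the channel gene differs between them. No host strain is named in the labels, and all groups were grown alike.

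Each array carries a sample code in its label. Vector arrays 1 to 3 carry codes 3 to 5, the CFTR arrays carry codes 7 to 10, and vector arrays 4 to 7 carry codes 11 to 14. The labels do not say what the codes record. No code range holds both genotypes, so code range and genotype cannot be told apart, and the vector arrays of codes 11 to 14 were compared with those of codes 3 to 5 as a difference that involves no CFTR. Biological replicates are mentioned in the design text without saying which culture each array came from, so a p-value here measures no more than spread among arrays. Vector 1 and vector 2 lay close to each other, with an SD of 0.11 (log2) over all genes in their difference, and vector 5 and vector 7 closer still, with an SD of 0.10. The number of arrays limits the precision of every value below.

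The ribosome translates messenger RNA, and its small subunit decodes the message while its large subunit forms peptide bonds and carries the tunnel through which the new protein leaves. Making ribosomes takes a large part of the transcription of a growing yeast cell. Ribosomal protein genes are known to be transcribed together under Rap1, Fhl1, Ifh1 and Sfp1, downstream of the TOR and protein kinase A pathways. Most of them are a pair of paralogues left by an ancient genome duplication, and many contain introns, which are rare in yeast. The copies often encode identical or nearly identical proteins.

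The values were deposited as scaled intensities, with each array averaging 1 over its probe sets, and they are given here as log2, so that 0 is the array mean. The members lay at the bright end of every array, as highly transcribed genes of growing yeast are known to do. Their mean level over the 11 arrays ranged from 0.35 to 3.94 (log2) with a median of 3.31, and 119 of the 122 stood at or above the 90th percentile of all genes. All 122 were above the background limit of -1.17, the 95th percentile of the probe sets not matched here to a single S. cerevisiae gene. The lowest was RPL15B, at the 64.4th percentile. The signal of different probe sets depends on their probes, so levels of different genes are not compared as amounts of RNA. The probe set used was of the plain gene-specific kind for 96 members, of the kind shared by several transcripts for 21 and of the kind that may cross-hybridise for 5. Near-identical paralogues may share signal, most of all for the last 2 kinds, and their separate values are uncertain.

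Ribosomal protein genes stood at nearly one level on most arrays. Their mean was 3.29, 3.28, 3.35 and 3.34 (log2) on CFTR arrays 1 to 4. It was 2.96, 2.92 and 3.35 on vector arrays 1 to 3 and 3.16, 3.35, 3.32 and 3.36 on vector arrays 4 to 7. Vector 1, vector 2 and, less far, vector 4 were low, and the other 4 vector arrays lay between 3.32 and 3.36, overlapping the CFTR range. The groups had means of 3.31 ± 0.04 (SD, n = 4) for CFTR and 3.20 ± 0.19 (SD, n = 7) for the vector.

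**Figure D1:**
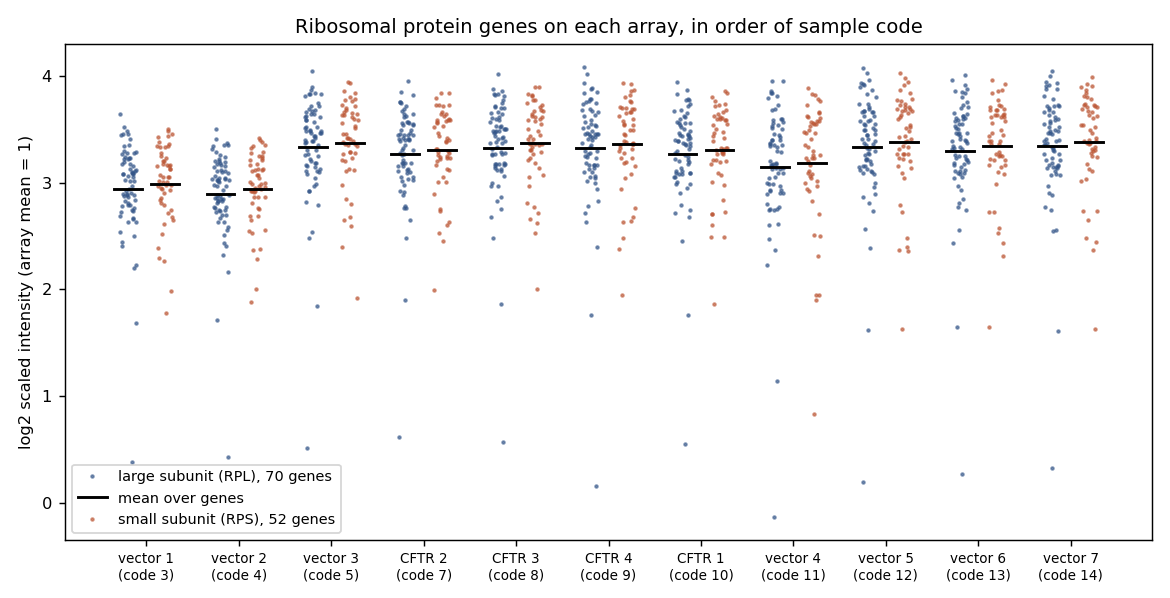
Level of each of the 122 ribosomal protein genes (log2 scaled intensity, array mean at 1) on each of the 11 arrays in order of sample code, with large subunit genes in blue and small subunit genes in orange, 1 point per gene, and a black bar at the mean over genes. The means of vector 1 and vector 2 lie lowest in both subunits (2.94 and 2.90 for the large subunit, 2.99 and 2.94 for the small), and those of vector 4 next (3.15 and 3.18).

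The low values of vector 1 and vector 2 were not limited to ribosomal protein genes. The 99th percentile of all genes was 3.28 and 3.20 on these arrays and 3.58 to 3.72 on the other 9. The median of all genes was 0.05 and 0.10 on them and -0.32 to -0.24 on the others, so their whole distribution was narrower. The 200 brightest genes outside the members averaged 2.93 and 2.88 on vector 1 and vector 2, against 3.19 to 3.26 elsewhere. The ribosomal protein genes held 10.1% and 9.70% of the summed signal there and 12% to 13.5% on the other 9 arrays. Their median rank among all genes differed little, at percentiles 97.5 and 97.5 on these 2 arrays. It was 97.0 on vector 4 and slightly higher, between 97.6 and 98.0, on the rest.

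**Figure D2:**
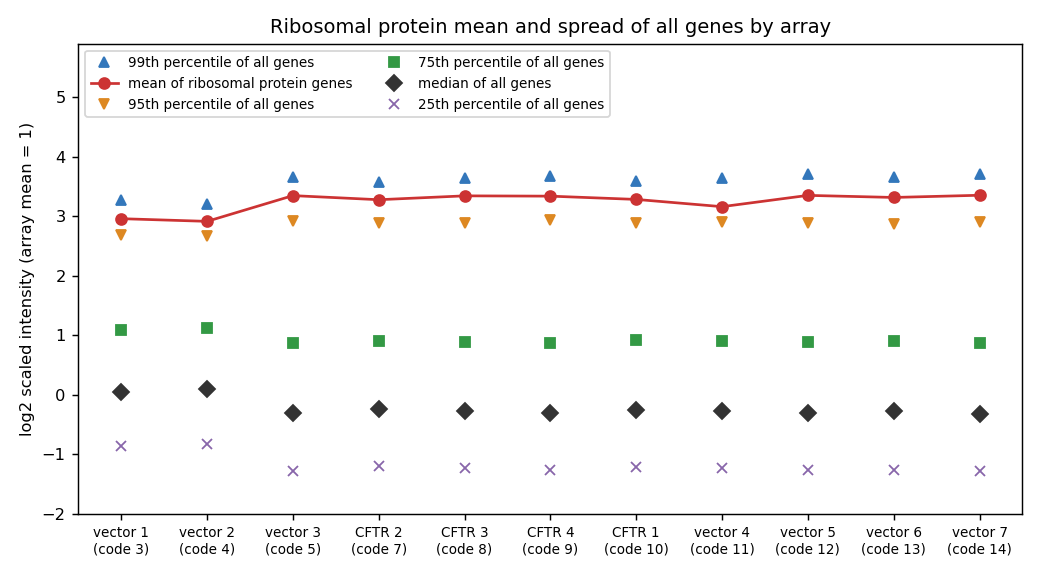
Mean level of the 122 ribosomal protein genes (red circles joined by a line) and the 25th, 50th, 75th, 95th and 99th percentiles of all 5449 genes (other symbols), in log2 scaled intensity, on each array in order of sample code. On vector 1 and vector 2 the ribosomal protein mean (2.96 and 2.92) and the 99th percentile (3.28 and 3.20) are low while the median (0.05 and 0.10) is high, and on vector 4 the ribosomal protein mean (3.16) is low while the 99th percentile (3.64) is not.

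On vector 4 the members were low, while the brightest other genes were not on average. All 122 members were below their mean over vector arrays 5 to 7, by a median difference of -0.16 (log2), whereas 47.0% of all genes were below it and their median difference was 0.01. The 200 brightest other genes averaged 3.22 on vector 4, within the range of the other arrays, and the members' median rank fell to percentile 97.0, the lowest of the 11 arrays. Large and small subunit genes were low alike, with median differences of -0.16 and -0.15. RPS9A was lowest against vector 5 to 7, by a difference of -0.80, followed by RPS28B at -0.57, RPL22B at -0.48 and RPS22B at -0.47. RPL40A at -0.02 and RPL4A at -0.04 differed least. Low values on vector 4 were not limited to the members. In the lists described further below, the stalk and ASC1 genes differed by -0.22 to -0.05. The dedicated chaperones differed by -0.645 to -0.37 and the nascent chain factors by -0.40 to -0.04. Elongation factors ranged from -0.30 to 0.01 and regulators from -0.085 to 0.15. This is a comparison of 1 array with 3 and carries no test.

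With all 11 arrays, no ribosomal protein gene was called different between CFTR and vector. By limma with Benjamini-Hochberg adjustment over all genes, 0 of 122 members passed an adjusted p of 0.05, against a background of 0.918% of all genes. An unadjusted p under 0.05 was reached by 2 members, RPS14B and RPL19A, against 18.2% of all genes. The estimates leaned one way: 121 of 122 were above 0, with a median log2 fold change of 0.10, while the median of all genes was -0.04 and 42.2% of all genes were above 0. The range was -0.01 to 0.33, and the standard error of a member had a median of 0.105 and a highest value of 0.17. RPS14B and RPL19A were also the only members whose 4 CFTR arrays lay above all 7 vector arrays, against 2.40% of all genes, and 0 members lay below, against 3.34%.

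That lean rested on vector 1 and vector 2. Without them, an alternative added after the data were seen, the median difference of the members was -0.01, 50 of 122 were above 0 against 56.3% of all genes, and 0 were called against 18.4%. Against codes 3 to 5 alone the median was 0.25 with all 122 above 0 against 30.8% of all genes, and 0 were called against 0.0184%. Against codes 11 to 14 alone it was -0.01 with 57 above 0, against 56% of all genes. With all 11 arrays, quantile normalization put the median at 0.03 with 102 above 0, median centring at 0.18 with all 122 above 0, and array weights at -0.03 with 42 above 0. Vector 3, the array of codes 3 to 5 that is not narrow, lay a median of 0.04 above the CFTR mean over the members.

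The members with the highest estimates were RPS9A, RPS14B, RPS28B and RPL22B, all of them 1 copy of a pair. Rps14, on the platform of the small subunit, is known to restrain splicing of the RPS14B transcript. RPS14B read 2.50, 2.45, 2.53 and 2.63 on CFTR arrays 1 to 4, 1.99, 2.01 and 2.40 on vector arrays 1 to 3 and 1.94, 2.36, 2.31 and 2.37 on vector arrays 4 to 7. Every CFTR array was above every vector array, with vector 3 the nearest. The log2 fold change was 0.33 (SE 0.11), a fold of 1.25, with a limma adjusted p of 0.14. RPL19A encodes a large subunit protein that reaches across to the small subunit, and it read 2.68, 2.65, 2.68 and 2.72 with CFTR and from 2.23 (vector 4) to 2.57 (vector 5) with the vector, median 2.54. Its groups did not overlap either, and its log2 fold change was 0.21 (SE 0.07, limma adjusted p 0.15).

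Rps9, a small subunit protein that helps keep decoding accurate, comes mostly from RPS9B, while RPS9A holds an intron whose splicing is regulated. RPS9A read 1.86, 1.995, 2.003 and 1.95 with CFTR, 1.78, 1.89 and 1.92 on vector arrays 1 to 3 and 0.84, 1.63, 1.65 and 1.63 on vector arrays 4 to 7. The CFTR arrays overlapped vector 2 and vector 3 and lay above all 4 arrays of codes 11 to 14, of which vector 4 was far the lowest. Its log2 fold change over all arrays was 0.33 (SE 0.17, limma adjusted p 0.33). RPS28B, whose messenger RNA is known to be degraded through the decapping activator Edc3 under the control of its own protein, read 2.71, 2.63, 2.71 and 2.68 with CFTR, 2.65, 2.52 and 2.68 on vector 1 to 3 and 1.90, 2.40, 2.53 and 2.48 on vector 4 to 7. Its CFTR range held vector 1 and vector 3 and lay above all of codes 11 to 14, with a log2 fold change of 0.23 (limma adjusted p 0.35). RPL22B, an intron-bearing minor copy of a large subunit gene, read 1.76, 1.90, 1.86 and 1.76 with CFTR, 1.69, 1.72 and 1.84 on vector 1 to 3 and 1.15, 1.62, 1.64 and 1.61 on vector 4 to 7. Only vector 3 lay within the CFTR range, and the log2 fold change was 0.21 (limma adjusted p 0.34).

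**Figure D3:**
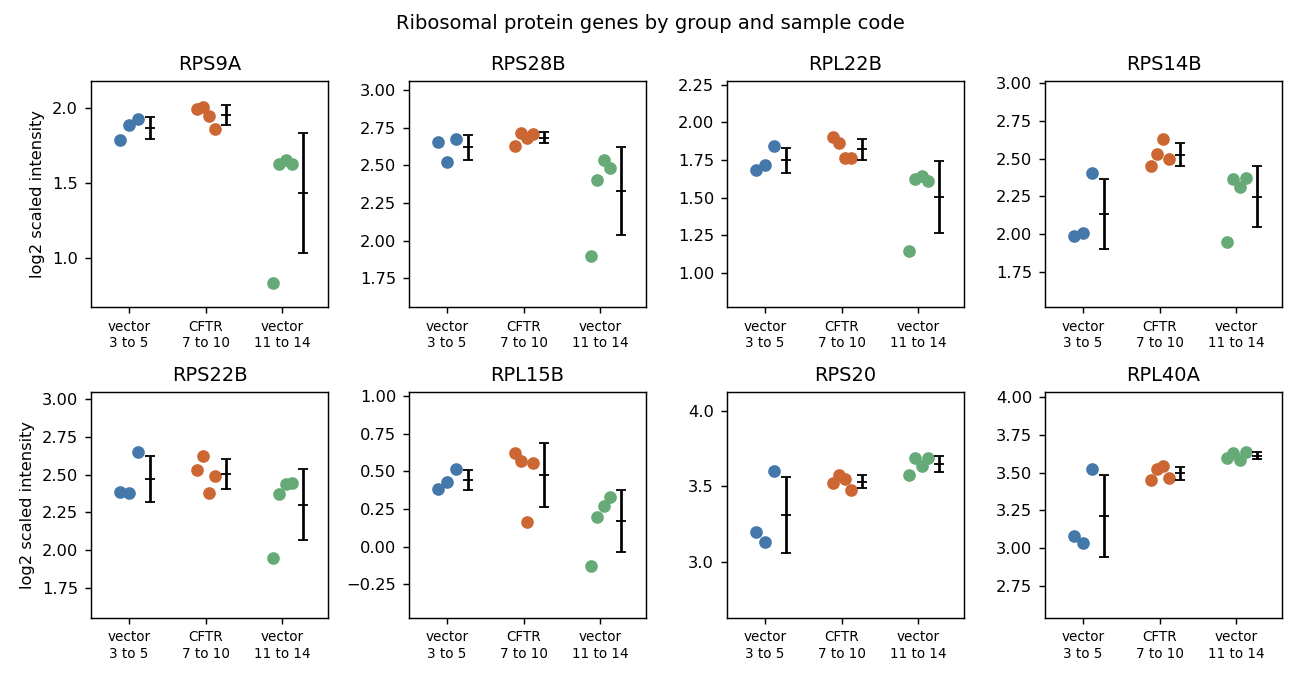
Level (log2 scaled intensity) of 8 ribosomal protein genes on vector arrays of codes 3 to 5 (blue), CFTR arrays of codes 7 to 10 (orange) and vector arrays of codes 11 to 14 (green), 1 point per array, with the mean and SD in black and the same axis span of 1.5 in every panel. RPS9A, RPS28B, RPL22B, RPS22B and RPL15B have vector 4 lowest (0.84, 1.90, 1.15, 1.95 and -0.13), while RPS20 and RPL40A have vector 1 and vector 2 lowest (3.20 and 3.13, 3.08 and 3.03).

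The other large subunit genes among the 8 highest estimates were RPL15A, RPL15B and RPL36B, and none of them passed the test. RPL15A and RPL15B encode a protein buried in the core of the large subunit. RPL15A lay between 3.26 and 3.28 on the 4 CFTR arrays, the smallest spread of any member, and at 2.69 and 2.69 on vector 1 and vector 2, 3.30 on vector 3 and 3.04 to 3.27 on vector 4 to 7. Its log2 fold change was 0.20 (SE 0.13, limma adjusted p 0.44). RPL15B, the dimmest member, read 0.56, 0.62, 0.57 and 0.16 with CFTR and from -0.13 to 0.52 with the vector. CFTR 4 was far below the other CFTR arrays, and the log2 fold change was 0.19 (limma adjusted p 0.46). RPL36B differed by 0.19 (limma adjusted p 0.29), with 3.45 to 3.50 on the CFTR arrays and 3.03 to 3.46 on the vector arrays.

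The lowest estimates were close to 0. RPS27A, a zinc-binding small subunit protein gene, read 3.00, 3.01, 3.05 and 3.04 with CFTR and 2.92 to 3.14, median 3.11, with the vector, a log2 difference of -0.01 (SE 0.07). The CFTR arrays lay inside the vector range. The others were RPS20 (head of the small subunit) at 0.03, RPL20A at 0.03, RPS17B at 0.04, RPS7A at 0.04, RPS24B at 0.04, RPL26A (near the tunnel exit) at 0.04 and RPL6B at 0.05, each with a limma adjusted p of 0.79 or more. The brightest members, RPL2A (near the peptidyl transferase centre), RPL4A (tunnel wall), RPS4B, RPS15 and RPL18B, differed by 0.06 to 0.11, and RPL9B, the fifth dimmest, by 0.06.

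Within the vector arrays, those of codes 11 to 14 had higher estimates than those of codes 3 to 5 for 116 of 122 members, against 32.1% of all genes. The median log2 fold change of the members was 0.25, and that of all genes was -0.19. By limma 3 members were higher, against 6.83% of all genes, and 0 were lower, against 20.3%. The 3 were RPL40A, RPS29A and RPL4A. RPL40A encodes a large subunit protein made as a fusion to ubiquitin. It read 3.08, 3.03 and 3.52 on vector 1 to 3 and 3.60, 3.63, 3.58 and 3.63 on vector 4 to 7, which did not overlap. It rose by 0.40 (SE 0.12, limma adjusted p 0.044), a fold of 1.32.

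RPS29A, a zinc-binding small subunit gene read by a probe set that may cross-hybridise, was at 2.95, 2.87 and 3.42 in codes 3 to 5 and at 3.47, 3.54, 3.49 and 3.54 in codes 11 to 14. It rose by 0.43 (limma adjusted p 0.044). RPL4A, whose protein lines the exit tunnel and which was read by a shared probe set, was at 3.52, 3.40 and 3.90 and at 3.95, 4.02, 3.96 and 3.997, and it rose by 0.38 (limma adjusted p 0.047). In all 3 genes vector 3 lay nearer to the later arrays than to vector 1 and vector 2. The largest estimates after these that missed the threshold belonged to RPS14A (0.39), RPS17A (0.38), RPL25 (0.38, the tunnel exit protein where nascent chain factors dock), RPL37A (0.38) and RPL7A (0.37), with limma adjusted p from 0.051 to 0.071. In all, 8 members did not overlap with codes 11 to 14 higher, against 10.8% of all genes.

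The members with estimates below 0 in that comparison were RPS9A at -0.43, RPS28B at -0.29, RPL15B at -0.28, RPL22B at -0.24, RPS22B at -0.17 and RPS23B (a protein of the decoding centre) at -0.04, with limma adjusted p between 0.11 and 0.78. RPS9A, RPL15B and RPL22B did not overlap, with codes 11 to 14 lower, against 27.8% of all genes. RPL19A and RPS17B, the next lowest, differed by 0.00 and 0.05. The counts of this comparison depended on single arrays. Without vector 3, 104 members were higher, as were 934 of all 5449 genes. Without any 1 of the other 6 vector arrays 0 members were called. The calls over all genes also fell there, to between 70 and 272 higher and between 77 and 630 lower. The median was 0.40 without vector 3 and 0.17 without vector 2. Without vector 1 and vector 2 together, which leaves vector 3 alone in codes 3 to 5, the median was -0.03. Quantile normalization, which gives all arrays one distribution, put the median at 0.00. It called 2 members higher and 5 lower, beside 677 and 831 of all 5449 genes.

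CFTR against codes 11 to 14 alone set aside the narrow arrays. It called 4 members higher, against 26.9% of all genes, and 3 lower, against 17% of all genes. The median of the members was -0.01 and that of all genes 0.04, with 57 members above 0 and 65 below. Either direction together gave 7 of 122 members, against 43.9% of all genes. The even split depended on vector 4: without it the median of the members was -0.05, with 29 above 0 and 93 below. That of all genes was then 0.04. This comparison and the previous one share the 4 arrays of codes 11 to 14, so their values are given side by side and not combined.

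Those higher with CFTR were RPS9A by 0.52 (SE 0.17, limma adjusted p 0.038, a fold of 1.43), RPS28B by 0.36 (SE 0.13, limma adjusted p 0.047), RPL22B by 0.32 (SE 0.11, limma adjusted p 0.045) and RPS14B by 0.28 (SE 0.10, limma adjusted p 0.043). In all 4 the CFTR arrays lay above codes 11 to 14 without overlap. Vector 4 carried a large part of these differences: without it they were 0.32 for RPS9A, 0.21 for RPS28B, 0.20 for RPL22B and 0.18 for RPS14B, all over 1.5 times smaller and all still past the threshold. Their splicing and decay were not measured. Those lower were RPL40A by -0.12 (SE 0.03, limma adjusted p 0.018), RPS20 by -0.12 (SE 0.04, limma adjusted p 0.031) and RPL7A by -0.11 (SE 0.04, limma adjusted p 0.035). RPS20 read 3.47, 3.52, 3.57 and 3.55 on CFTR arrays 1 to 4 and 3.58, 3.69, 3.63 and 3.69 on vector 4 to 7, so that CFTR 3 and vector 4 nearly met. RPL40A was at 3.46, 3.45, 3.53 and 3.54 with CFTR, below its values in codes 11 to 14 given above. RPL7A, whose protein takes part in early assembly of the large subunit and which was read by a shared probe set, was at 3.72, 3.69, 3.78 and 3.78 and at 3.79, 3.91, 3.84 and 3.87. In codes 3 to 5, vector 3 read 3.60 for RPS20, 3.52 for RPL40A and 3.81 for RPL7A, and vector 1 and vector 2 lay below all CFTR arrays for each.

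Without overlap there were 8 members higher, against 25.9% of all genes, and 3 lower, against 15.9%. Beside the 4 called, the higher ones were RPL19A, RPL36B, RPL13B and RPS23B, with limma adjusted p of 0.054 to 0.10. Which array was left out changed the calls. Without CFTR 2 there were 0, while of all 5449 genes 1142 were higher and 776 lower. Without vector 4 there were 6 higher (against 31.1% of all genes) and 24 lower (against 19.2%). Without CFTR 4 there were 1 higher and 8 lower, beside 1309 and 746 of all 5449 genes. Without CFTR 1, CFTR 3, vector 5, vector 6 or vector 7 there were 2, 2, 2, 4 and 2 in either direction, while of all genes 1169 to 1430 were higher and 746 to 1003 lower. The balance of directions also moved with the scaling. Quantile normalization called 15 members higher and 1 lower, beside 1365 and 1065 of all 5449 genes. Median centring called 0 higher and 3 lower, beside 1243 and 1128 of all genes. Of 17 alternatives, RPS9A passed the threshold in 12, RPS14B in 11, RPS28B in 9, RPL22B in 8, RPL40A in 12, RPS20 in 10 and RPL7A in 8, all in the same direction. Under quantile normalization RPL40A was at -0.05 (limma adjusted p 0.12) and RPL7A at -0.04 (limma adjusted p 0.096), both over 1.5 times smaller and no longer called. RPS20 was at -0.07 and still called (limma adjusted p 0.034). Of the 4 called higher, RPS14B and RPS28B were still called under it. RPS9A and RPL22B (0.28, limma adjusted p 0.074) were not.

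Members with dim probe sets and members with bright ones differed in these comparisons. Across the 122 members, the difference CFTR minus codes 11 to 14 fell with the mean level of the probe set (Pearson r -0.71, Spearman rho -0.57, across genes), while across all 5449 genes r was 0.01. For codes 11 to 14 minus codes 3 to 5, r was 0.74 over the members and 0.19 over all genes. For vector 4 minus vector 5 to 7, r was 0.71 over the members and -0.14 over all genes. The genes share the same arrays and the level is the mean of those arrays, so these values are descriptions with no test. With a limit of 3 (log2) set after the values were seen, the 21 dimmer members had a median of 0.07 for CFTR minus codes 11 to 14, 17 of them above 0, and the 101 brighter members had a median of -0.02, 40 of them above 0. The background correction of the values is not given in the sources used here, and its part in this was not tested.

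**Figure D4:**
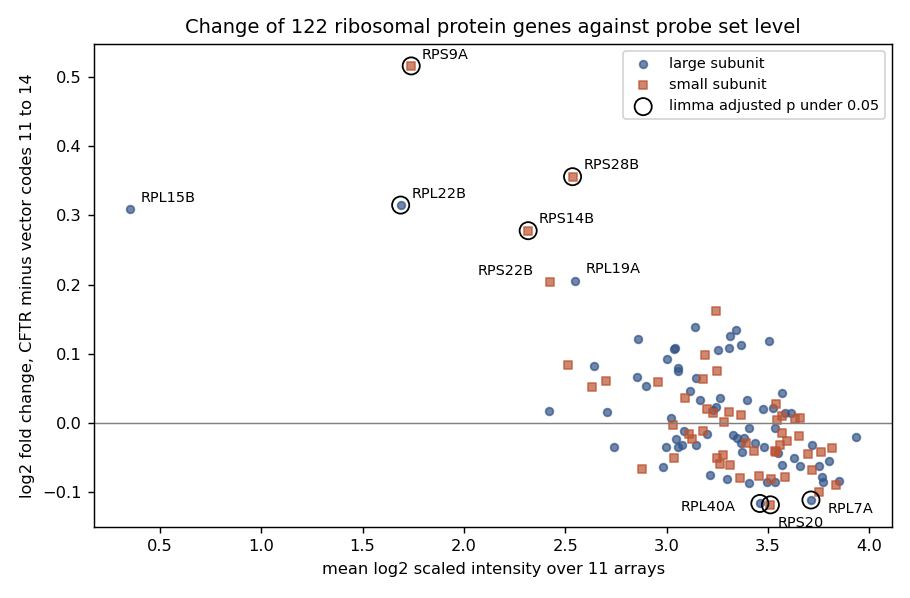
Log2 fold change of each of the 122 ribosomal protein genes, CFTR minus vector codes 11 to 14, against its mean level over 11 arrays (log2 scaled intensity), with large subunit genes as blue circles, small subunit genes as orange squares and a ring around the 7 genes with a limma adjusted p under 0.05. The 4 ringed genes above 0 (0.28 to 0.52) have mean levels from 1.69 to 2.54, and the 3 below 0 (-0.12 to -0.11) lie between 3.46 and 3.71.

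The 2 subunits moved together on every array. The mean of the large subunit genes minus that of the small subunit genes was -0.04 on each CFTR array, and between -0.05 and -0.03 on the 7 vector arrays. The change of this difference, CFTR minus vector, was 0.0044 (log2), with SDs of 0.001 (n = 4) and 0.006 (n = 7). The median log2 fold change was 0.11 for the 70 large subunit genes, all above 0, and 0.10 for the 52 small subunit genes, 51 above 0, and 0 of either were called. Against codes 11 to 14 the medians were -0.01 and -0.02, with 1 large subunit gene higher and 2 lower and 3 small subunit genes higher and 1 lower. Against the same 4 arrays the 17 single-copy genes had a median of -0.04 with 4 above 0, the 48 A copies -0.01 with 23 above 0 and the 48 B copies 0.01 with 26 above 0.

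Paralogues were compared by the log2 difference A minus B on each array, a change in which shows that the copies moved unequally. In an exact two-sided permutation test over the 330 splits of the arrays, adjusted over the 48 pairs compared, 0 pairs passed, and the smallest adjusted p was 0.65. The smallest exact p that 330 splits allow is 0.003, and 0 pairs reached it. Even at that value no lone pair could pass after the adjustment. An unadjusted exact p under 0.05 was reached by 3 pairs: RPL31 (0.10, exact p 0.021), RPS24 (0.08, exact p 0.039) and RPL19 (0.08, exact p 0.048), all with copy A relatively higher with CFTR. The size of the change, CFTR minus vector, had a median of 0.03 over the pairs and was under 0.1 in 44 of 48. In 0 of 48 pairs were the groups without overlap. The range of A minus B over all 11 arrays had a median of 0.26 over the pairs.

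**Figure D5:**
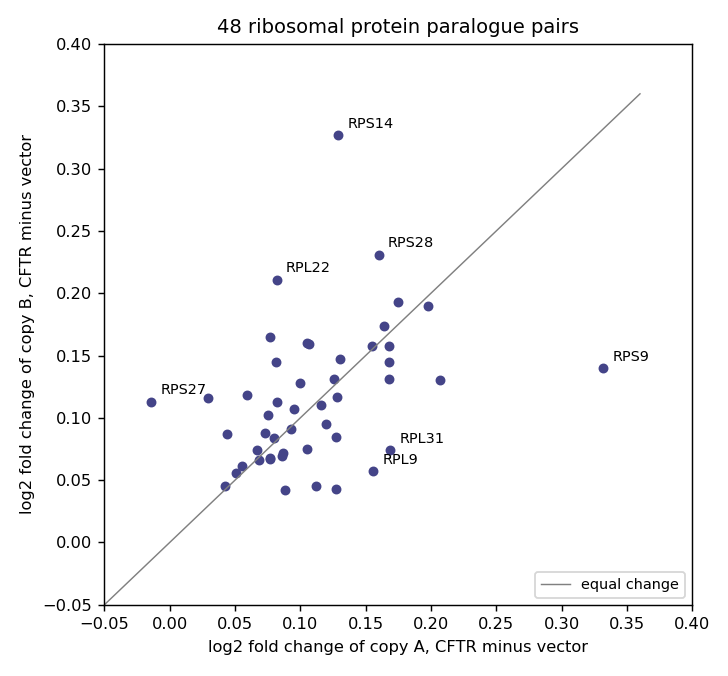
Log2 fold change, CFTR minus vector, of copy A (horizontal) and copy B (vertical) of 48 ribosomal protein gene pairs, 1 point per pair, with a grey line of equal change. RPS14 and RPL22 lie above the line (copy B at 0.33 and 0.21, copy A at 0.13 and 0.08) and RPS9 lies below it (copy A at 0.33, copy B at 0.14).

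The largest estimates were in RPS14, RPS9 and RPL22. For RPS14, A minus B was 1.09, 1.13, 1.09 and 1.06 with CFTR, 1.14, 1.06 and 1.19 on vector 1 to 3 and 1.66, 1.32, 1.32 and 1.34 on vector 4 to 7. The CFTR values lay with codes 3 to 5 and below codes 11 to 14. The change was -0.20 (exact p 0.073, 0.70 adjusted over the pairs). For RPS9 it was -1.44, -1.32, -1.37 and -1.42 with CFTR, -1.20, -1.08 and -1.47 on vector 1 to 3 and -2.25, -1.72, -1.64 and -1.70 on vector 4 to 7, a change of 0.19 (exact p 0.36). Here too the CFTR arrays fell among codes 3 to 5 and above all of codes 11 to 14. For RPL22 it was 1.64, 1.502, 1.61 and 1.69 with CFTR, 1.43, 1.32 and 1.63 on vector 1 to 3 and 2.21, 1.88, 1.82 and 1.88 on vector 4 to 7, a change of -0.13 (exact p 0.42).

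In RPS27 the departure lay in the narrow arrays. A minus B was -0.30 and -0.24 on vector 1 and vector 2 and between -0.68 and -0.57 on the other 9 arrays, CFTR included, and the change was -0.13 (exact p 0.16). RPL20 was at 0.54 on vector 2 and between -0.05 and 0.13 on the other 10, and its change was -0.09 (exact p 0.66). RPL20A itself read 3.26 on vector 2 and 2.87 on vector 1, while RPL20B, read by a shared probe set, read 2.72 and 2.75. RPL9 (change 0.10, exact p 0.20), RPL31 and RPL4 (change -0.09, exact p 0.17) completed the 8 largest. Against codes 11 to 14 alone, 11 pairs had an unadjusted exact p of 0.029, the smallest that 70 splits allow, and did not overlap, RPS9 (0.44), RPL22 (-0.34), RPS14 (-0.32), RPS28 (-0.29) and RPS23 (-0.17) among them, and 0 passed after adjustment (smallest 0.12). In 32 pairs both copies were read by plain gene-specific probe sets, and in the other 16 at least 1 was not.

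Genes that work beside the ribosomal proteins showed no called difference between CFTR and vector over all 11 arrays in any of 5 lists. Only 0.918% of all genes were called in that comparison, so these counts were near the background. The stalk proteins RPP0, RPP1A, RPP1B, RPP2A and RPP2B, which recruit elongation factors, and the scaffold ASC1 belong to the ribosome but fall outside the naming rule. All 6 were above 0, against 42.2% of all genes, with a median of 0.12, and 0 were called in either direction. Against codes 11 to 14 their median was -0.01 and again 0 were called, against 43.9% of all genes. Of 7 measured elongation factor genes 0 were called over all arrays. Against codes 11 to 14 CAM1, a subunit of elongation factor eEF1B, was higher by 0.49 (limma adjusted p 0.00040) and TEF2, an eEF1A gene read by a shared probe set, lower by -0.12 (limma adjusted p 0.020), while 26.9% of all genes were higher and 17% lower. TEF4, EFB1, EFT2, YEF3 and HYP2 differed by -0.09 to 0.12 and were not called. Within the vector arrays CAM1 was lower in codes 11 to 14 by -0.40 (limma adjusted p 0.013), and TEF2 and HYP2, the eIF5A gene, were higher by 0.40 and 0.35 (limma adjusted p 0.044 and 0.035), beside 20.3% of all genes lower and 6.83% higher.

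Of 8 regulators, HMO1, which binds many ribosomal protein promoters, was lower with CFTR than in codes 11 to 14 by -0.29 (SE 0.05, limma adjusted p 0.0024) and TOR1, a kinase of the TOR pathway, by -0.26 (SE 0.05, limma adjusted p 0.0026), beside 17% of all genes, and 0 were higher, beside 26.9%. HMO1 read 2.21, 2.14, 2.31 and 2.24 with CFTR, 2.05, 2.09 and 2.41 on vector 1 to 3 and 2.45, 2.56, 2.55 and 2.48 on vector 4 to 7. The CFTR values lay among codes 3 to 5 and below codes 11 to 14. Within the vector arrays FHL1, HMO1, CRF1 and TOR1 were higher in codes 11 to 14, by 0.38, 0.33, 0.33 and 0.31 (limma adjusted p 0.023 to 0.046), which is 4 of 8 beside 6.83% of all genes, and 0 were lower, beside 20.3%. CRF1, a corepressor of these genes, read -3.85 to -3.34 on the vector arrays, below the background limit of -1.17. RAP1, IFH1, SFP1 and SCH9 were called in neither comparison. Within the vector arrays their estimates were -0.17, 0.00, -0.62 and -0.43, so the list did not move one way. That of SFP1 was the largest in size of the 8 regulators (limma adjusted p 0.05), with codes 11 to 14 lower without overlap.

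Dedicated chaperones bind single new ribosomal proteins and deliver them to the assembling subunits. Of 7, only YAR1, the chaperone of Rps3, was called, and it was called in both comparisons that use codes 11 to 14. It read 1.32, 1.41, 1.38 and 1.27 with CFTR, 1.44, 1.496 and 1.26 on vector 1 to 3 and 0.20, 0.55, 0.73 and 0.56 on vector 4 to 7. The arrays of codes 11 to 14 were low, and CFTR overlapped codes 3 to 5. It was higher with CFTR than in codes 11 to 14 by 0.84 (SE 0.10, limma adjusted p 0.00055) and lower in codes 11 to 14 than in 3 to 5 by -0.89 (limma adjusted p 0.0083). These are 1 of 7 in each comparison, beside 26.9% and 20.3% of all genes, so the counts were not above the background. ACL4, SYO1, RRB1, SQT1, TSR2 and BCP1 differed from codes 11 to 14 by -0.08 to 0.29 and were not called. Among 7 factors that act on chains leaving the ribosome, EGD2 of the nascent polypeptide-associated complex and ZUO1 of the ribosome-associated complex were higher with CFTR than in codes 11 to 14, by 0.17 and 0.19 (limma adjusted p 0.030 and 0.035), and 0 were lower. All genes gave 26.9% higher and 17% lower, so 2 of 7 was near the background. EGD1, BTT1, SSB1, SSB2 and SSZ1 differed by -0.06 to 0.24 and were not called.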

How the data were processed

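RNA for 4 CFTR and 7 vector arrays (Affymetrix) was measured after hot phenol extraction and biotin labelling with a 3' IVT kit, per the labels' protocols. The authors deposited an intensity per probe set on a linear scale, and every array averages 1 over its 10715 probe sets, as tested on the file. The software, with its background correction and summarisation, was not given in the sources used here. Such scaling shows shares of an array's signal and hides any change of total RNA in a cell. Numbers of vector replicates come from the labels, while CFTR numbers follow accession order and only name arrays.

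Names of probe sets came from the platform annotation and, for names only, the R64 gene table. In all 5498 matched 1 yeast gene, giving 5449 genes by the brightest set. Values in log2 were tested over all genes by limma 3.58.1 (R 4.3.3), using lmFit and then eBayes with its trend option, at a Benjamini-Hochberg adjusted p of 0.05, and pairs with an exact permutation test (Python 3.11.15), figures with matplotlib 3.10.9. The fits were tested on simulated data. Members and lists were chosen with earlier results of these data known. Genes were named by rule: the 8 highest and 8 lowest estimates of CFTR minus vector and of codes 11 to 14 minus 3 to 5, the 5 brightest and 5 dimmest, the 8 pairs with the largest unequal change, and all genes of the 5 lists. The comparison of CFTR with codes 11 to 14 as a result of its own, the genes named from it, RPS22B's and others' values on vector 4, and the split by probe set level were chosen after seeing the data. Alternatives were array weights, quantile normalization, robust eBayes, median centring, no trend, a gene's mean probe set, dim probe sets filtered out, near-copy arrays averaged, code ranges alone and each array left out. Centring on the ribosomal protein mean, leaving out vector 1 and vector 2, and plain probe sets only were added after seeing the data.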

Additional observations from a re-analysis of the deposited data

Results flagged for a closer look

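Within the 4 CFTR and the 7 vector arrays, 98 sets of values were searched. They covered 39 named members, the 8 most unequal pairs, the mean of all members and the subunit difference, each in both genotypes. An array was marked if its gap to its nearest neighbour was large against the range of its group. Chance marks about 1 in 20 such groups, and 10 were marked. The sets share the same arrays, so the 10 marks are not separate events. Most named members and all 8 pairs were picked for extreme estimates on these arrays, which a stray array can produce. The 10 marks therefore cannot be read as an excess over that rate.

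Vector 4 was marked most often. It was low for RPS9A at 0.84 (others 1.63 to 1.92), RPS28B at 1.90 (others 2.40 to 2.68), RPL22B at 1.15 (others 1.61 to 1.84), RPS22B at 1.95 (others 2.37 to 2.65) and RPL19A at 2.23 (others 2.43 to 2.57). Its large minus small subunit difference of -0.031 stood above the other vector arrays (-0.048 to -0.042). Vector 1 was low for RPL20A at 2.87 (others 3.13 to 3.30), and vector 2 was high for RPL20 A minus B at 0.54 (others -0.05 to 0.13). Among the CFTR arrays, CFTR 4 was low for RPL15B at 0.16 (others 0.56 to 0.62), and CFTR 3 was high for RPL36B at 3.50 (others 3.45 to 3.46), a gap of small absolute size.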

How the results depend on the processing

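For CFTR against vector the count of 0 called members held on leaving out each array. Those fits called 2 to 220 of all genes higher and 0 to 301 lower. The count of 0 held under all other alternatives save array weights (32: 11 higher, 21 lower) and codes 11 to 14 alone (7). Of all 5449 genes, array weights called 1941 higher and 1369 lower, and codes 11 to 14 alone 1466 and 927. The vector-only comparison (3 called) gave 7 with quantile normalization and with centring on the ribosomal protein mean. It gave 0 with median centring (of all genes 721 higher and 545 lower), no intensity trend (341 and 1138) and near-copy arrays averaged (12 and 2). Leaving out each array gave 0 to 104, with 70 to 934 of all genes higher and 77 to 2932 lower. With array weights it gave 113. The array weights of that fit did not converge, so that count and its median of 0.46 are void. The main median of 0.25 became -0.004 with quantile normalization and 0.50 with median centring (all genes moved from -0.19 to -0.04 and 0.06). It was -0.033 without vector 1 and vector 2, and 0.17 to 0.40 on leaving out each array. Of all 5449 genes, quantile normalization called 677 higher and 831 lower there, and centring on the ribosomal protein mean 84 and 402. CFTR against codes 11 to 14 (7 called) gave 16 with quantile normalization (15 higher) and 3 with median centring (0 higher). It gave 41 with array weights (10 higher), 2 with near-copy arrays averaged and 25 with centring on the ribosomal protein mean. Leaving out each array gave 0 to 30. Of all 5449 genes, quantile normalization called 1365 higher and 1065 lower, median centring 1243 and 1128, and array weights 1961 and 1317. Averaging near-copy arrays called 1188 and 762, and the centring on the ribosomal protein mean 976 and 723. On leaving out each array the ranges were 1142 to 1696 higher and 746 to 1045 lower. The causes were not tested. RPS27A turned to 0.06 with median centring, 0.036 against codes 3 to 5 alone, and 0.002 and 0.003 without vector 5 and vector 6, within -0.034 to 0.003 on leaving out each array. The subunit difference moved under none of its 19 alternatives. The count of 0 unequal pairs moved under none of its 20. With so few splits no lone pair could pass the adjustment in any of them, so this unmoved count says little. No paired analysis was possible because the CFTR labels carry no replicate numbers. Scaling to the array mean and 11 arrays limit small differences.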
